A study of Mus musculus with 8 samples.

Results

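RNA of cell division genes was read in 8 clones of mouse iPS cells (induced pluripotent stem cells), of which 4 had been derived in medium with ascorbic acid, or vitamin C, and 4 in medium lacking it. The set holds 40 gene symbols: cyclins, cyclin-dependent kinases (CDKs) and their CDC25 activators, E2F factors and their pocket-protein partners, factors that license and build the replication fork, and regulators of mitosis. A gene was included when at least 1 probe set of the array is annotated to its symbol alone, and the probe set with the highest mean signal over the 8 arrays stood for it. This gave 39 of the 40 genes, out of 18193 genes with such a probe set on the array. The exception was Ccnb1, which encodes cyclin B1; its expression is not analysed here, and it enters only the promoter counts. All 39 lay above the limit on dim probe sets, so all were among the 13129 genes tested.

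The clones were derived from fibroblasts of Col-OKSM reprogrammable mice, whose Oct4, Sox2, Klf4 and cMyc transgenes are switched on by doxycycline. Culture was the same for both groups: ES cell medium containing serum, LIF and doxycycline, over a layer of irradiated fibroblast feeders. They differ in the labels only by ascorbic acid. Each clone gave 1 Affymetrix 3'-IVT mouse array, and feeders were reduced by preplating before RNA extraction. The labels call the clones of a group biological replicates without saying whether they came from separate embryos, so the p-values refer to the variation among these 8 cultures only.

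Cell cycle genes are read here as RNA levels in growing cultures. As background, D-type cyclins with CDK4 and CDK6, and E-type cyclins with CDK2, phosphorylate the pocket proteins (Rb1, Rbl1, Rbl2) in G1. This releases E2F factors, which switch on genes for DNA replication. Cyclin A2 acts in S phase and cyclin B with CDK1 in mitosis, and many G2/M genes are held off in G1 through a short promoter element, the cell cycle genes homology region (CHR). Mouse pluripotent cells divide fast with a short G1 phase, and irradiated feeder cells no longer divide.

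The arrays had median signals of 134 to 156.2 (signal is brightness on a linear scale, scaled per array by the authors). The 8 pluripotent cell markers checked, among them Pou5f1, Nanog and Sox2, were present in every clone, and all 8 were lower with ascorbic acid (median log2 difference -0.12, none called; after quantile normalization 7 were lower, with a median of -0.066), with summed signals of 80610 to 97500 with and 88940 to 103800 without ascorbic acid. Of 16 fibroblast and feeder markers, 13 were above the dim limit. Summed over those 13, clones with ascorbic acid had 11050 to 15320 and the others 13680 to 16740. Of the 13, 10 were lower with it, with a median log2 difference of -0.19 (-0.197 after quantile normalization). None was called, but 5 of the 13 had an unadjusted limma p under 0.05, against 5.87% of all tested genes. These 5 were Postn, Col1a2, Col3a1 and Col5a1, lower with ascorbic acid, and Twist1, higher with it. Postn, a matrix protein, had a mean signal of 317 ± 33.9 in the supplemented clones and 416 ± 22.8 in the others (SD, n = 4 each; limma, adjusted p = 0.744), and Twist1, a mesenchymal transcription factor, read 201 ± 26.7 and 135 ± 21.1 (SD, n = 4 each; limma, adjusted p = 0.747). The part of feeder RNA in the values below was not tested. In a culture, fewer cells in a phase and less RNA per cell cannot be told apart.

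None of these cell cycle genes passed the test between the groups. With and without ascorbic acid were compared with limma on log2(signal + 16), and 0 of the 39 genes had an adjusted p under 0.05, against 0.0229% of all 13129 tested genes (3 genes, none of them in this set). At an unadjusted limma p under 0.05 the count was also 0 of 39, while 5.87% of all tested genes were under that value. Over the 20 other limma settings tried, 0 to 3 genes of the set were under that unadjusted value. The count was 3 when the probe sets of a gene were averaged and when the clone number was a block. In every setting 0 of the set had an adjusted p under 0.05. Differences were small: they ran from -0.23 (E2f2) to 0.30 (Ccne2) on the log2 scale, with a median of -0.011 beside -0.0038 over all tested genes. In all, 17 genes, 43.6% of the set, were higher with ascorbic acid and 22 lower, beside 48.7% higher among all tested genes. That split turned with the scaling of the arrays: 22 were higher (56.4%) after quantile normalization and 25 (64.1%) after centring arrays on their medians, where 60.1% of all genes were higher.

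The intervals, each for the brightest probe set of 1 gene at the deposited scaling, bound how large a difference that probe set could hide. The 95% interval of the difference lay inside 1.5-fold either way for 37 of 39 genes, and for all 39 inside 2-fold. Among all tested genes 84.5% lay inside 1.5-fold and 97.1% inside 2-fold. The median within-group SD was 0.115 log2 in the set and 0.152 over all tested genes. The set was brighter than that background, with 17 of 39 genes at a mean signal of at least 5000 against 651 of 13129. The interval shares and the SD were not compared with genes of like signal. They therefore do not show an unusually stable set. In 39 replication genes outside the set the median SD was 0.0883. It was 0.111 in 36 further mitotic genes and 0.134 in 26 further CDK and E2F regulators. The 2 genes whose interval reached past 1.5-fold were Ccne2, at the upper end (1.51-fold), and Ccna1, at the lower end (0.656-fold). The tightest was that of Mcm3, from -0.16 to 0.096 log2. These bounds do not cover dimmer probe sets, such as those of Ccnd3 at 0.43 ± 0.31 and Mcm5 at -0.445 ± 0.26 (log2, SE).

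**Figure D1:**
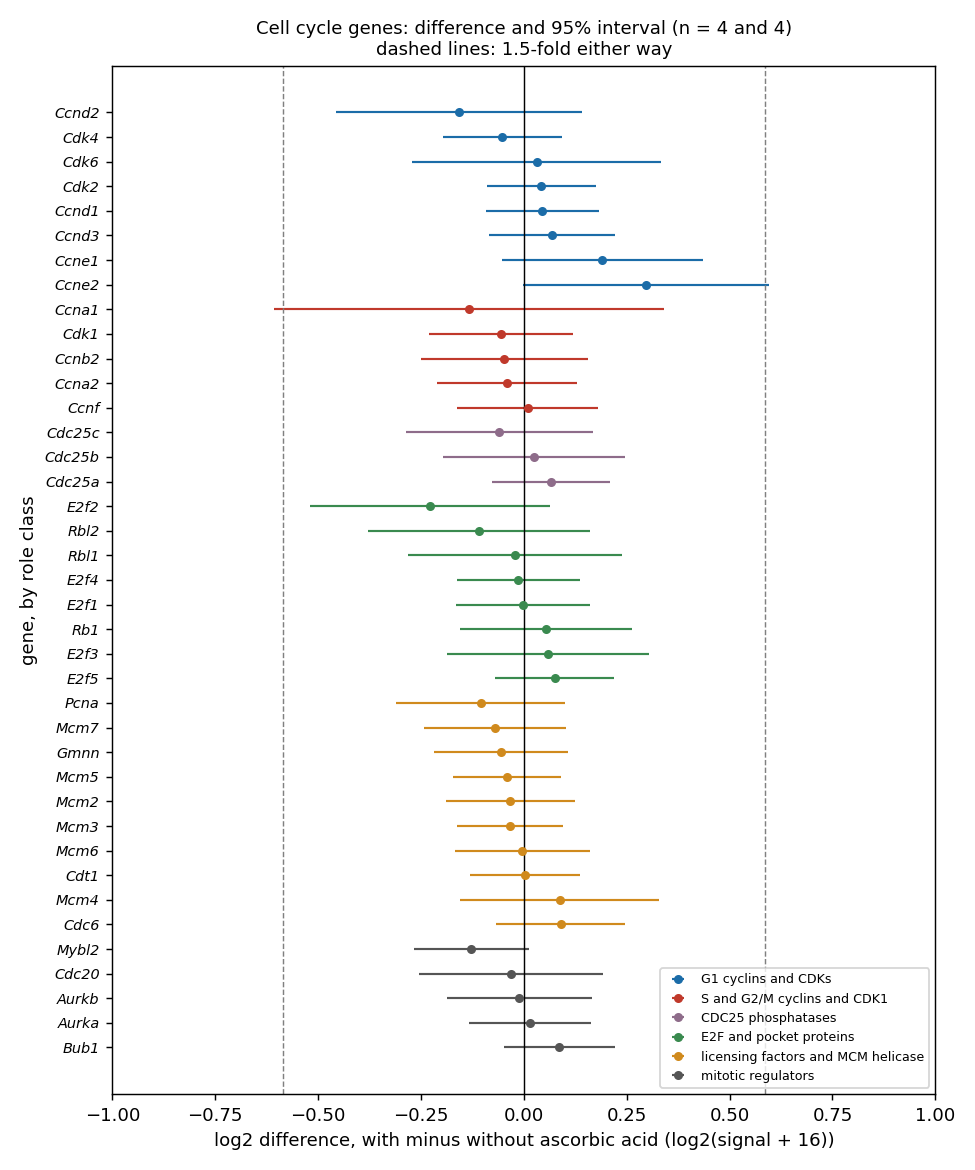
Log2 difference, with minus without ascorbic acid (x axis, log2(signal + 16) scale), for the 39 cell cycle genes (y axis) in 6 role classes. Points are the difference of the means of 4 and 4 clones and bars the 95% limma interval; dashed lines mark 1.5-fold either way. All intervals include 0, and those of Ccne2 and Ccna1 cross a dashed line.

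The G1 cyclins and their kinases held the largest positive difference. Ccne2, one of the E-type cyclins that carry cells into S phase with CDK2, had signals of 416, 362, 374 and 318 in clones 1 to 4 with ascorbic acid and 316, 360, 279 and 237 in clones 1 to 4 without. The groups overlapped, because clone 2 without ascorbic acid read above clone 4 with it. The difference was 0.30 ± 0.14 log2 (SE), 1.23-fold, with an interval from -0.0017 to 0.60 (limma, adjusted p = 0.839). It kept its sign in all 20 alternative settings, at 0.20 to 0.39, lowest when clone 4 without ascorbic acid was left out, with an unadjusted limma p under 0.05 in 9 of them and an adjusted p of at least 0.644.

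Ccne1, the other E-type cyclin, read 3661, 3789, 4572 and 4054 with and 3646, 2921, 4382 and 3238 without ascorbic acid. Its lowest clones, 2 and 4, were both in the group without, but clone 3 of that group was the second brightest of all. The difference of 0.19 ± 0.11 log2 (SE; limma, adjusted p = 0.839) was matched in sign by the second Ccne1 probe set, at 0.29. It became 0.10 when clone 2 without ascorbic acid was left out, 0.13 when clone 3 with it was, and 0.30 when clone 3 without it was (limma, adjusted p = 0.850, 0.881 and 0.900). Ccnd2, a D-type cyclin, varied most among the G1 genes, with a within-group SD of 0.25 log2 against a median of 0.15 over all tested genes. It read 1149, 1440, 997 and 963 with and 1343, 1528, 1180 and 1026 without ascorbic acid, and clone 2 was the brightest of its group in both (difference -0.16 ± 0.14, SE; limma, adjusted p = 0.895). The Ccnd2 difference was -0.28 without clone 2 with ascorbic acid and -0.065 without clone 2 of the other group. It lay at -0.10 without clone 3 with, -0.086 without clone 4 with and -0.25 without clone 4 of the other group, and at -0.091 over the mean of its probe sets.

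The other G1 genes had still smaller differences. Ccnd1 read 2569 ± 98.98 with and 2493 ± 177 without, and Ccnd3 read 5371 ± 386 and 5122 ± 365 (SD, n = 4 each). Among their kinase partners, Cdk4 read 5835 ± 408 with and 6044 ± 296 without, Cdk6 395 ± 48.5 and 389 ± 73.1, and the E-cyclin partner Cdk2 2095 ± 116 and 2034 ± 92.7 (SD, n = 4 each). Of the 8 G1 genes, 6 were higher with ascorbic acid under all 3 array scalings, and none passed (limma, smallest adjusted p = 0.839).

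The cyclins of S phase and mitosis, with CDK1, had group differences smaller than their within-group SD. Cdk1, the kinase that drives entry into mitosis, read 7146, 7630, 8417 and 7633 with and 8224, 6918, 8096 and 8856 without ascorbic acid. Both the dimmest and the brightest clone belonged to the group without, and the difference was -0.055 ± 0.080 log2 (SE; limma, adjusted p = 0.943). Ccna2, cyclin A2, read 6149, 6854, 7146 and 6371 with and 6986, 5990, 6757 and 7604 without. The same 2 clones without ascorbic acid, 2 and 4, again held the lowest and the highest signal (difference -0.041 ± 0.078, SE; limma, adjusted p = 0.959).

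Ccnb2, cyclin B2, read 6513, 7122, 7756 and 6623 with and 7824, 5925, 7603 and 7707 without ascorbic acid (difference -0.047 ± 0.093, SE; limma, adjusted p = 0.959). Clone 2 without ascorbic acid was its lowest clone. Leaving that clone out moved the difference to -0.14 for Ccnb2 and -0.12 for Cdk1, still without a call (limma, adjusted p = 0.700 and 0.727). Ccnf, an F-box protein of G2 that takes part in protein degradation, read 3727 ± 298 with and 3708 ± 342 without (SD, n = 4 each). Ccna1, the cyclin A of the germ line, was dim and close to the limit of 97.5, at 73.9, 137, 104 and 110 with and 106, 121, 92.9 and 150 without.

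Promoter letters known from G2/M and replication genes are shown for 4 members: Ccnb2, Cdk1 and Cdc20, whose values by clone are described, and Mcm5, as an example of a replication gene. RefSeq promoter windows of 300 bases (250 before the annotated start and 50 after, mouse build GRCm38.p6) were found for 29 of the 40 symbols, of 27025 genes in the table. Each window was searched on both strands for the E2F core (TTCCCGC or else TTCGCGC or else TTGCCGC or else TTGGCGC), for the NF-Y box CCAAT and for the CHR letters TTTGAA or TTCGAA; matches of different motifs may overlap. The 250 bases before the start are printed 5′ to 3′ on the gene's strand, with matches to any of the 3 motifs in capitals (a match on the other strand appears as its reverse complement, such as ATTGG for the NF-Y box). Ccnb2 is at chr9:70421555-70421804 and Cdc20 at chr4:118437344-118437593, both on the minus strand. Cdk1 is at chr10:69352913-69353162 on the minus strand, and Mcm5 at chr8:75109259-75109508 on the plus strand.
Ccnb2: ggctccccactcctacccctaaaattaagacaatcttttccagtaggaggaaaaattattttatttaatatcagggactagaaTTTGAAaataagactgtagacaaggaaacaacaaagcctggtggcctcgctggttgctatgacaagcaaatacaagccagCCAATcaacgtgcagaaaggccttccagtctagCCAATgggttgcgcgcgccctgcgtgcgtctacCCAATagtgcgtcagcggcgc
Cdk1: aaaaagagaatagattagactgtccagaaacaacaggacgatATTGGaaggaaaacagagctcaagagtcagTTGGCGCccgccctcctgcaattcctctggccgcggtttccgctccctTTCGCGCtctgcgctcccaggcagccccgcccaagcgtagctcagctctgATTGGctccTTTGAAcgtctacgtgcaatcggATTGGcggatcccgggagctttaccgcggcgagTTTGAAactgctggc
Cdc20: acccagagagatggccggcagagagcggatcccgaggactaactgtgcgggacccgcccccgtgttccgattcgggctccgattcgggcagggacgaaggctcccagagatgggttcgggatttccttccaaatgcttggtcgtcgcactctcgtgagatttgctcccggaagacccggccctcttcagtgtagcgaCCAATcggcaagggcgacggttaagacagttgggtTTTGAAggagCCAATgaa
Mcm5: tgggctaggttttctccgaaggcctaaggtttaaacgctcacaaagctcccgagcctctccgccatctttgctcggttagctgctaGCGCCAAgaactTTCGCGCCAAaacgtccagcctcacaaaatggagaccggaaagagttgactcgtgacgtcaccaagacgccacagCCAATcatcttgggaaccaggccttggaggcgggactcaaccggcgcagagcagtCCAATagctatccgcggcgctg

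In the printed stretches Ccnb2 holds 3 NF-Y boxes and 1 CHR, and Cdc20 holds 2 and 1. Cdk1 carries all 3 kinds, with 2 E2F cores, 3 NF-Y boxes and 2 CHR matches. Mcm5, a subunit of the replicative helicase, has 3 E2F cores and 2 NF-Y boxes with no CHR in these bases. Past the printed bases, Ccnb2 has a further CHR match at +5 and Mcm5 a further NF-Y box at +7.

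Over the whole windows, the E2F core was found in 13 of the 29 genes (44.8%), beside 10.9% of all genes in the table. It was found in 6 of the 8 licensing and replication genes with a window (Cdc6, Cdt1, Mcm3, Mcm5, Mcm6 and Mcm7) and in 0 of the 4 mitotic regulators. The NF-Y box was in 20 of 29 (69%, beside 41.1%) and the CHR in 12 of 29 (41.4%, beside 21.7%). A CHR and an NF-Y box in the same window occurred in 11 of the 29, beside 8.61% of all genes. The CHR was found in 3 of 5 S and G2/M genes, 3 of 4 mitotic regulators and 0 of 5 G1 genes. These are matches of letters and show no binding.

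**Figure D2:**
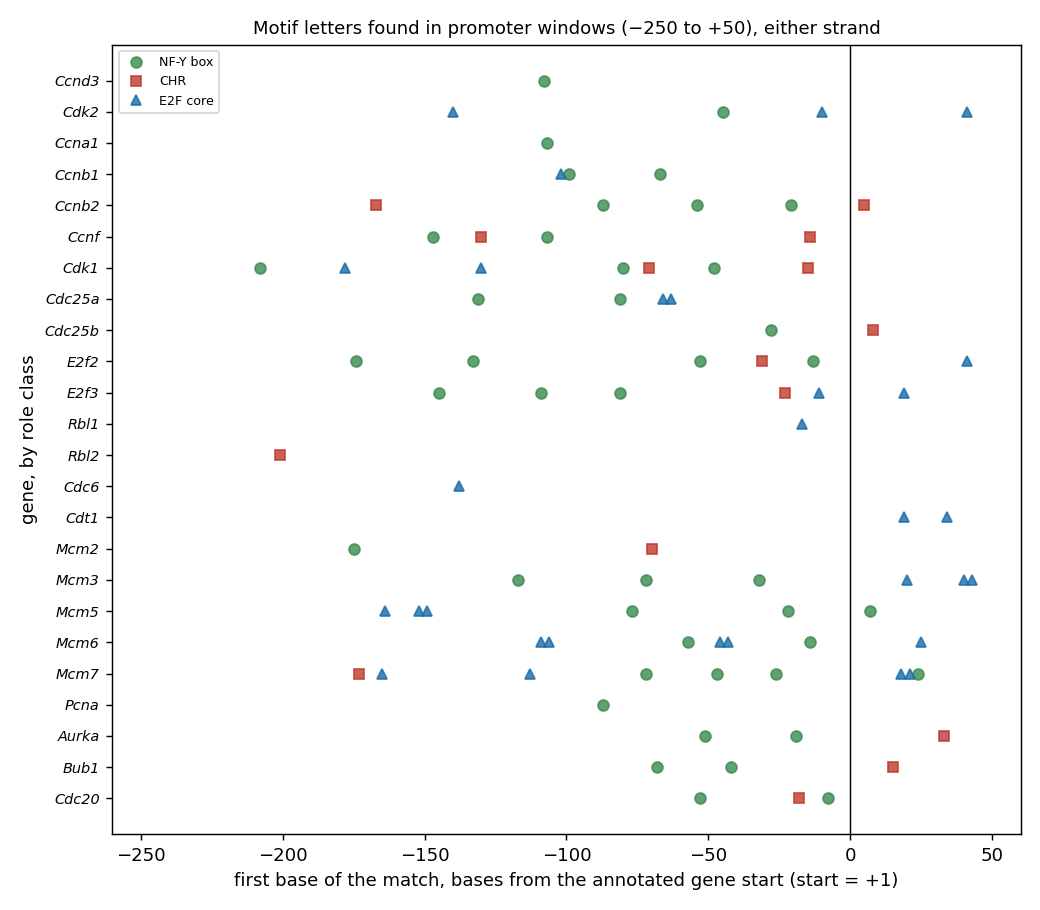
Position of each motif match (x axis, bases from the annotated start, with the start at +1) in the promoter windows of the member genes that hold at least 1 match (y axis, by role class). Symbols mark the E2F core, the NF-Y box and the CHR; matches in 2 windows of 1 gene share a row. E2F cores are seen in 6 of the 8 licensing and replication genes with a window, and the CHR among others in Ccnb2, Ccnf, Cdk1, Aurka, Bub1 and Cdc20.

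The CDC25 phosphatases remove the inhibitory phosphates from CDKs. Cdc25a, which acts at the G1/S step and later, read 2946, 2744, 2805 and 2778 with and 2869, 2754, 2794 and 2379 without ascorbic acid. The other 7 clones lay within 2744 to 2946, and clone 4 without was below them (difference 0.065 ± 0.066, SE; limma, adjusted p = 0.913). Without that clone the difference was 0.0061. Cdc25b read 899, 769, 881 and 882 with and 877, 676, 919 and 921 without, so clone 2 was the lowest of its group in both. Cdc25c, a phosphatase of mitotic entry, read 719, 863, 913 and 815 with and 960, 726, 817 and 960 without (difference -0.060 ± 0.10, SE; limma, adjusted p = 0.956).

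Among the E2F factors and pocket proteins, E2f2 was the 1 gene of the 39 whose groups did not overlap. E2f2, an activating E2F, read 199, 161, 179 and 203 with and 212, 204, 246 and 215 without ascorbic acid. The gap was small, 202.7 against 203.7, and groups that do not overlap occurred in 3.63% of all tested genes. Its difference was -0.23 ± 0.13 log2 (SE; limma, adjusted p = 0.839), and its other probe set pointed the same way, at -0.12. These signals are near the dim end of the tested range, where log2(signal + 16) understates a change.

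E2f5, a repressive E2F, read 3138, 2748, 2828 and 2934 with and 2619, 3009, 2861 and 2579 without (difference 0.075 ± 0.067, SE; limma, adjusted p = 0.901). Its other 2 probe sets were lower with ascorbic acid, the lowest at -0.12. Rbl2, the pocket protein p130, read 199, 226, 181 and 203 with and 223, 228, 208 and 217 without, with overlap (difference -0.11 ± 0.12, SE; limma, adjusted p = 0.926). Rb1 itself, the retinoblastoma protein, read 932 ± 87.0 with and 899 ± 105 without, and Rbl1 (p107) 523 ± 83.4 and 528 ± 52.3 (SD, n = 4 each).

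The remaining E2F genes had group differences smaller than their within-group SD. E2f1, an activator of S phase genes, read 1540.4 ± 156 with and 1537 ± 73.7 without. E2f3 read 690.2 ± 38.6 and 668 ± 112, and the repressor E2f4 read 1591 ± 120 and 1604 ± 82.8 (SD, n = 4 each). In this class 3 of 8 genes were higher with ascorbic acid, or 6 of 8 after median centring, and none passed (limma, smallest adjusted p = 0.839).

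Replication licensing genes other than Cdc6 had mean signals of at least 5000. On the brightest probe set of each gene, none of the differences in this class exceeded that of Pcna, at -0.105 log2. Some dimmer probe sets went further, such as those of Mcm5 at -0.445 and Mcm7 at 0.27 (limma over all probe sets, adjusted p = 0.872 and 0.869). Cdc6, which loads the helicase onto origins, read 1215, 1276, 1361 and 1231 with and 1244, 1151, 1301 and 1085 without ascorbic acid (difference 0.089 ± 0.072, SE; limma, adjusted p = 0.889). The lowest 2 clones, 4 and 2, were both in the group without. Pcna, the sliding clamp of DNA polymerases, read 12360.5, 14889, 15368 and 12822 with and 15466, 12740.0, 15311 and 16087 without. Clones 1 and 4 with and clone 2 without were the 3 low ones (difference -0.10 ± 0.094, SE; limma, adjusted p = 0.901). After quantile normalization the Pcna difference was -0.013.

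Mcm7 repeated the order of Pcna in its low clones, with 12912, 14042, 15378 and 13787 with and 15137, 12957, 15275 and 15600 without (difference -0.070 ± 0.079, SE; limma, adjusted p = 0.924). The other subunits of the MCM2-7 helicase lay close together between groups. Mcm2 read 7414 ± 379 with and 7599 ± 645 without, Mcm3 9428 ± 416 and 9643 ± 365, and Mcm5 10535 ± 492 and 10840 ± 382 (SD, n = 4 each). Mcm4 read 7004 ± 1012 and 6575 ± 811, and Mcm6 7907 ± 714 and 7915 ± 507 (SD, n = 4 each).

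The licensing factor Cdt1 read 8138 ± 413 with and 8120 ± 363 without, and Gmnn (geminin), the inhibitor of Cdt1, read 5023 ± 393 and 5220 ± 413 (SD, n = 4 each). Of these 10 genes 3 were higher with ascorbic acid as deposited, 7 after quantile normalization and 6 after median centring, so the direction of the class turned with the scaling. None passed (limma, smallest adjusted p = 0.889).

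Of the mitotic regulators, Mybl2 had the largest difference. Mybl2 encodes B-Myb, a transcription factor of G2/M genes that is abundant in pluripotent cells. It read 5858, 6741, 6220 and 6609 with and 7159, 6718, 6569 and 7327 without ascorbic acid. Clones 1 and 3 with ascorbic acid were the lowest and clones 1 and 4 without the highest, while the others overlapped. The difference was -0.13 ± 0.064 log2 (SE; limma, adjusted p = 0.839), and the second probe set gave -0.21 (limma over all probe sets, adjusted p = 0.869). Its sign was the same in all 20 alternative settings, at -0.17 to -0.089.

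Bub1, a kinase of the spindle checkpoint, read 5235, 4849, 5775 and 5207 with and 5087, 4744, 4973 and 5004 without (difference 0.086 ± 0.062, SE; limma, adjusted p = 0.867). Cdc20, which activates the anaphase-promoting complex, read 12905, 14284, 16530 and 13959 with and 15406, 12075, 15196 and 16429 without (difference -0.032 ± 0.10, SE; limma, adjusted p = 0.975). The Cdc20 difference turned to 0.066 after quantile normalization. The Aurora kinases read 4178 ± 111 with and 4144 ± 369 without for Aurka, and 2258 ± 235 and 2270 ± 163 for Aurkb (SD, n = 4 each).

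Further genes of the same processes were compared from 3 lists, and none of them passed. Of 39 tested replication genes outside the set, 16 were higher and 23 lower with ascorbic acid, with a median log2 difference of -0.0077. Those with the smallest p were Orc3, a subunit of the origin recognition complex (1615 ± 60.8 with, 1808 ± 132 without), and Rfc3, of the clamp loader (1470.5 ± 117 with, 1307 ± 47.3 without; SD, n = 4 each; limma, adjusted p = 0.816 and 0.823). Of 36 further mitotic genes, 17 were higher and 19 lower, with a median of -0.0056. Kif2c, a kinesin that dismantles microtubules, was at 0.11 ± 0.055 and Kif23, a kinesin of cytokinesis, at -0.19 ± 0.094 (log2, SE; limma, adjusted p = 0.839 for both). Of 26 further CDK and E2F regulators, 18 were higher and 8 lower, with a median of 0.023. Here Pkmyt1, a kinase that inhibits CDK1, read 1142 ± 98.1 with against 1358 ± 135 without, and Wee1, another inhibitory kinase of CDKs, 2168 ± 134 and 1934 ± 246 (SD, n = 4 each; limma, adjusted p = 0.769 and 0.839). The first 2 splits turned after median centring, to 23 and 24 higher, and the second also after quantile normalization, to 20.

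The clearest pattern in these genes lay between clones and not between groups. Under the deposited scaling, the genes of the set with a mean signal of at least 5000 moved together: of these 17, 13 were below their own 8-clone mean in clone 1 with ascorbic acid and 13 in clone 2 without. Only 3 were below it in clone 3 with and in clones 1 and 3 without. Bright genes in general did the same. In clone 1 with ascorbic acid the median log2 deviation was -0.11 for the 17 genes and -0.13 for all 651 tested genes at or above 5000, and in clone 2 without it was -0.10 and -0.065. The 99th percentile of signal was lowest in clone 1 with (9665) and clone 2 without (10090), and highest in clone 3 with (11140).

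Quantile normalization, which gives every array the same distribution of values, took most of this away. The median deviation of the 651 bright genes then lay between -0.019 and 0.014 in every clone, and that of the 17 bright cell cycle genes between -0.057 (clone 2 without) and 0.038 (clone 1 without).

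**Figure D3:**
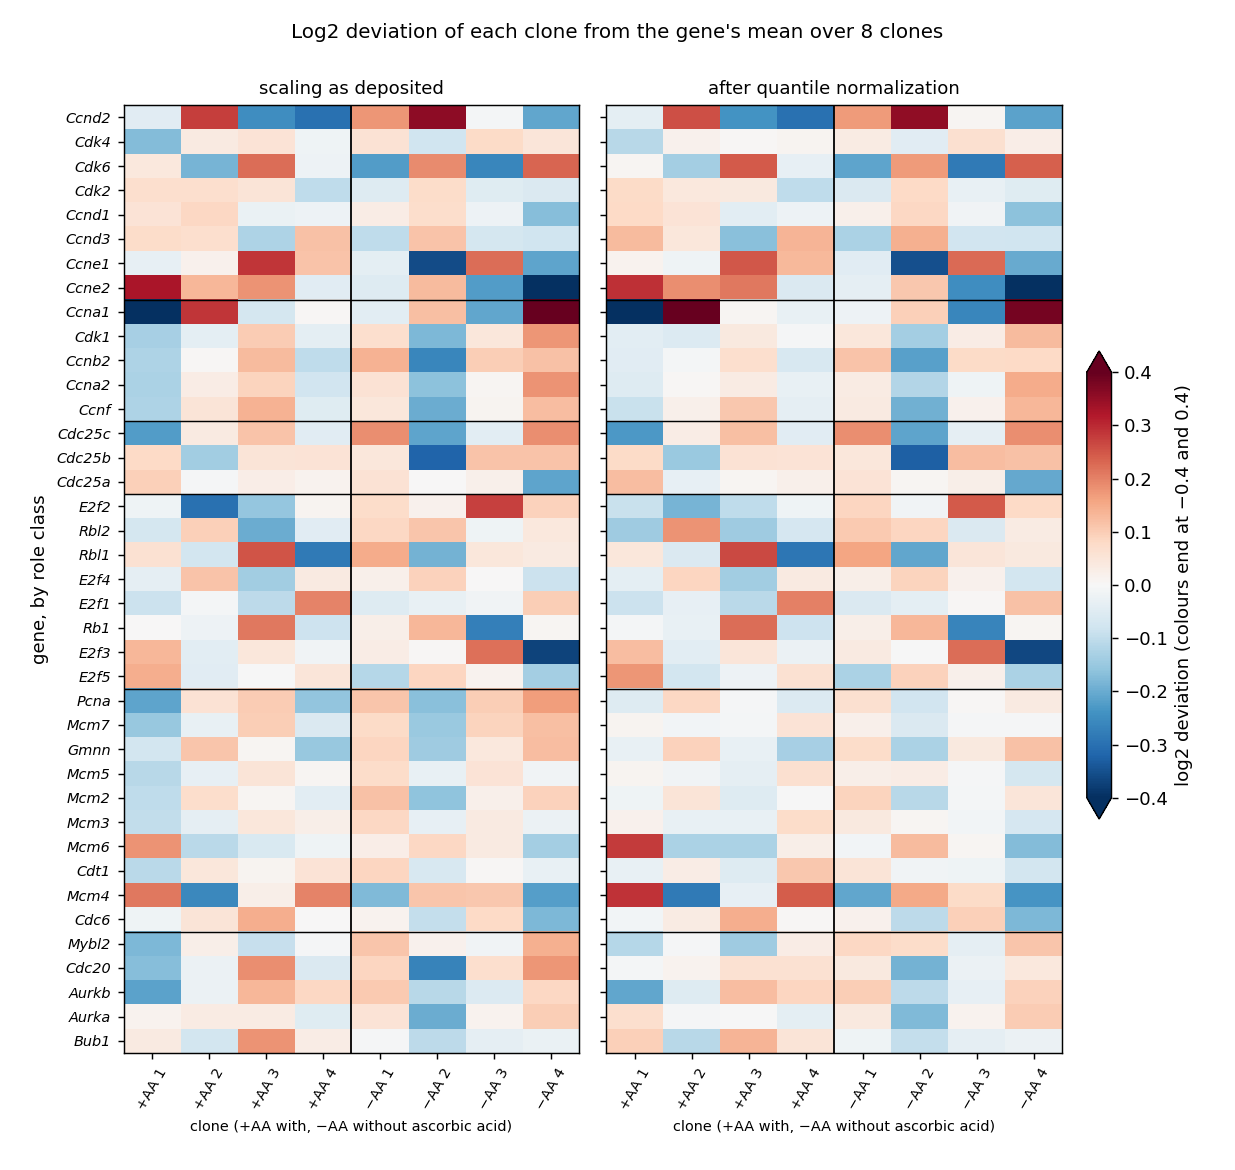
Log2 deviation of each clone (x axis, 4 with and 4 without ascorbic acid) from the gene's mean over 8 clones, for the 39 genes (y axis, by role class), as deposited (left) and after quantile normalization (right). Red is above and blue below the gene's mean. Clone 1 with and clone 2 without are blue over many bright genes on the left; on the right clone 2 without remains blue for Ccna2, Ccnb2, Ccnf, Cdk1, Cdc20 and Aurka.

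Mitotic genes of clone 2 without ascorbic acid stayed low after quantile normalization. Ccnb2 was at -0.22, Ccnf at -0.19, Cdk1 at -0.13 and Ccna2 at -0.12 log2 below their means, and each of these 4 genes was lowest in that clone. Ccna1, the dim germ-line cyclin, was at 0.095. Among the mitotic regulators Cdc20 was at -0.19, Aurka at -0.18, Aurkb at -0.11 and Bub1 at -0.095, while Mybl2 was at 0.073. Cdc25b, at -0.33, Cdc25c and Rbl1, each at -0.21, and Gmnn, at -0.13, were also low there. So were Mcm2, at -0.11, and Cdc6, at -0.10, while Mcm4, at 0.15, and Mcm6, at 0.13, were high. Of the 39 genes, 22 were below their means in that clone.

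Clone 4 of the same group went the other way for most of the mitotic genes. It had Ccna2 at 0.15, Ccnf at 0.13, Cdk1 at 0.13 and Aurka at 0.10, each the highest of the 8 clones. Cdc20 was only at 0.043 in clone 4, and Bub1 was below its mean, at -0.023. Of the 8 G1 genes in clone 4, 6 were below their means, with Ccne2 at -0.46, Ccnd2 at -0.21, Ccne1 at -0.20 and Ccnd1 at -0.17. Above them were Cdk6, at 0.24, and Cdk4, at 0.028. Clone 2 without had Ccnd2 at 0.35, Ccnd3 at 0.14, Cdk6 at 0.17 and Ccne2 at 0.11, all above the mean, but Ccne1 at -0.35, so Cdk6 was high and Ccne1 low in both clones. By class, the medians of the G1 genes were 0.095 in clone 2 and -0.12 in clone 4, and those of the S and G2/M genes were -0.13 and 0.13.

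The 36 further mitotic genes, which are not in the set, were low in the same clone. In clone 2 without ascorbic acid 35 of the 36 were below their own mean, both as deposited and after quantile normalization, where 51.4% of all tested genes were. Their median deviation after quantile normalization was -0.15 in that clone and between -0.045 and 0.068 in the other 7. It was highest in clone 4 without, at 0.068, and next in clone 3 with, at 0.060. The 39 further replication genes had a median of -0.032 in clone 2 without, and the licensing class of the set one of -0.036. These clones were singled out after their values were seen, and with 1 array per clone no test of a clone was made. The fibroblast and feeder markers stood at 0.20 in clone 2 and -0.15 in clone 4 without ascorbic acid, and at 0.22 in clone 1 without, where the further mitotic genes were at 0.045. In clone 3 with ascorbic acid the markers stood at -0.28 and the further mitotic genes at 0.060. The 3′ to 5′ actin signal ratio, a measure of RNA integrity, was 1.26 in clone 2, 1.14 in clone 4 and 1.21 to 1.28 in the other 6. Their part in the mitotic and G1 gene levels was not tested.

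**Figure D4:**
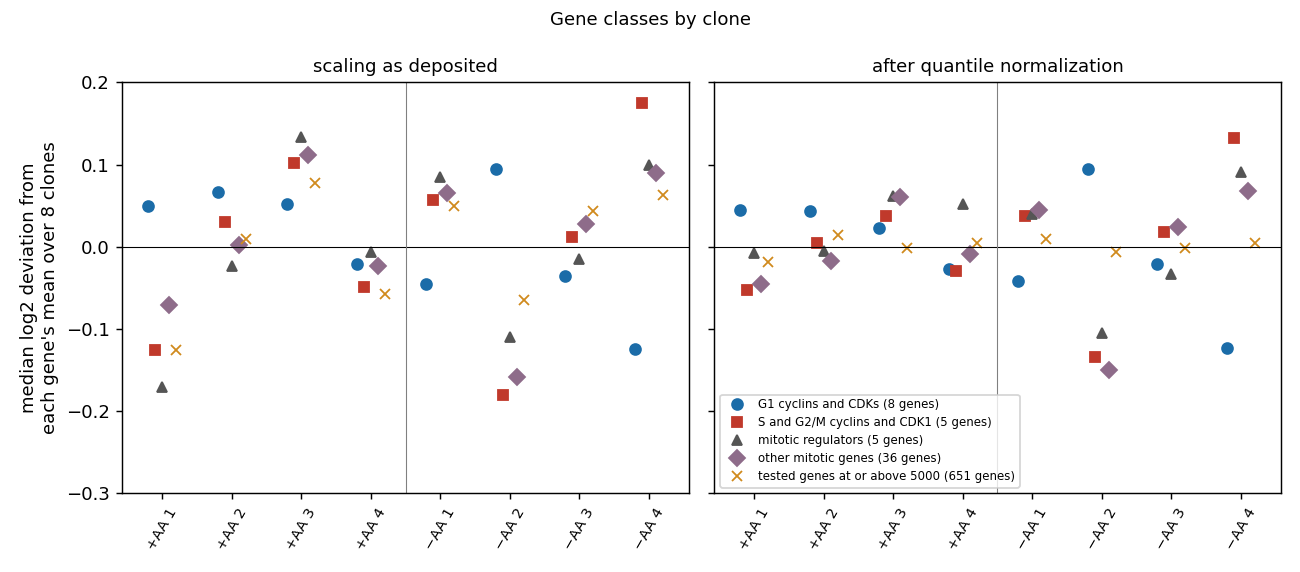
Median log2 deviation from each gene's 8-clone mean (y axis) by clone (x axis, 4 with and 4 without ascorbic acid) for 3 role classes of the set, the 36 further mitotic genes and the 651 tested genes with a mean signal of at least 5000, under both scalings. Points are medians over genes of 1 array. After quantile normalization the bright genes lie near 0 in all clones, while the mitotic classes stay low in clone 2 and high in clone 4 without ascorbic acid and the G1 genes lie on the other side.

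Several genes of the set were read by more than 1 probe set, and these did not always agree. The 39 genes had 92 probe sets, of which 80 were above the dim limit. Of the 27 genes with more than 1 such probe set, 15 had all of them on one side of 0 and 12 had them on both. None of the 80 passed in limma over all 23159 probe sets, of which 0.0518% did. At an unadjusted limma p under 0.05 there were 4 of the 80, beside 5.7% of all probe sets, a share near the background. The smallest p belonged to an _s_at probe set of Aurkb, the kinase of the chromosomal passenger complex, at 0.30 ± 0.093 log2 (SE; limma over all probe sets, adjusted p = 0.768). It read 1778, 1400.3, 1793 and 1869 with and 1360.3, 1512, 1388 and 1264 without ascorbic acid, so that 3 clones with it lay above all 4 without. The brighter Aurkb probe set, of the _x_at class, was at -0.011.

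Mcm4 and Mcm7 showed that a clone can be high on one probe set and low on another. The brighter Mcm4 probe set, an _x_at design that may also bind related transcripts, gave 7796, 5632, 6850.1 and 7739 with and 5965, 7282, 7267 and 5786 without. Its other probe set gave 5049.9, 5336, 5398 and 5017 with and 5575, 4952, 5344 and 5619 without. Clones 1 and 4 with and clone 2 without were high on the first and low on the second.

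For Mcm7, an _x_at probe set read 6074 in clone 1 with ascorbic acid and 3428 to 4213 in the other 7 clones, while the brightest Mcm7 probe set was lowest in that clone. The other 3 clones with ascorbic acid read 3787 to 4213, against 3428 to 3839 without, and the difference with clone 1 included was 0.27 ± 0.12 (SE; limma over all probe sets, adjusted p = 0.869). Clone 2 without ascorbic acid was the lowest on both Ccne1 probe sets, at 2921 and 1521, and the second read 2357 to 3210 in the other 7 clones.

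**Figure D5:**
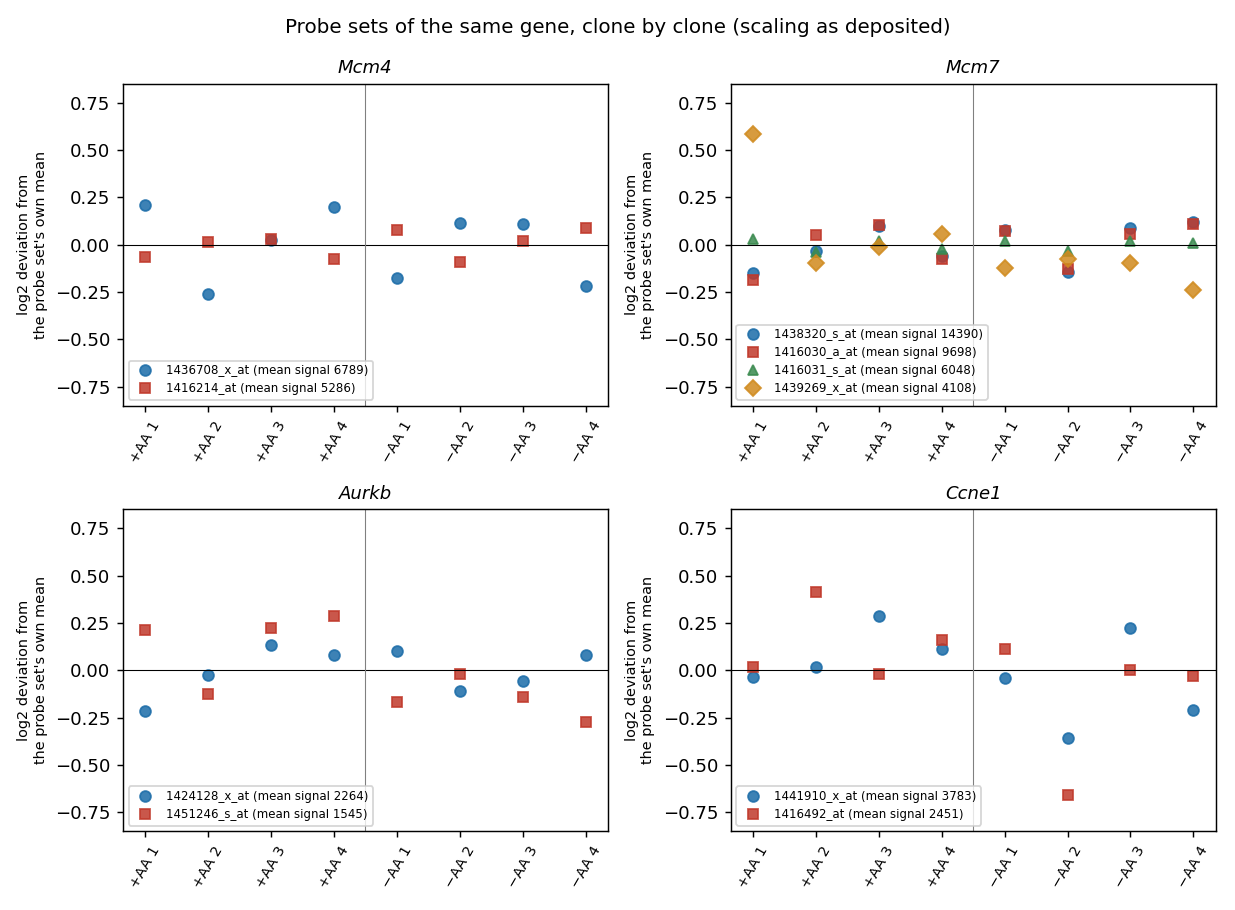
Log2 deviation of each clone (x axis, 4 with and 4 without ascorbic acid) from the mean of the probe set (y axis) for the probe sets of Mcm4, Mcm7, Aurkb and Ccne1 above the dim limit, scaling as deposited. Each symbol is a probe set with its mean signal in the legend. The Mcm4 probe sets lie on opposite sides of 0 in clones 1, 2 and 4 of both groups, and 1 Mcm7 probe set stands at the top in clone 1 with it.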

How the data were processed

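Expression was measured in 8 iPS clones, 1 Affymetrix mouse array each, with 4 clones in a group. The authors deposited a linear intensity (signal) for each probe set. Per the submitters' processing notes GCOS, the Affymetrix operating software, made them; no version or algorithm is given in the sources used here. In the deposited table each array has a mean of 500 after trimming 2% at each end. All 8 columns were matched to samples.

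Of 45101 probe sets, 64 controls were left out; 34945 are annotated to 1 symbol, 932 to several and 9160 to none, and only the first were used. All 39 symbols matched RefSeq (GRCm38.p6) through their Entrez identifiers. Values were taken as log2(signal + 16) at the deposited scaling. Probe sets in the lowest 40% by mean signal (under 97.5) were left out, and the brightest probe set stood for a gene. Groups were compared as with minus without in limma 3.58.1 (R 4.3.3; lmFit, eBayes with intensity trend, two-sided), with Benjamini-Hochberg adjustment over 13129 genes and a threshold of 0.05; probe sets were fitted likewise. The scripts were tested on simulated data. Figures used matplotlib 3.10.9.

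The members, lists and alternatives were chosen with earlier results of these data known. Every member was described, with values per clone for the up to 3 of each class with the smallest p; Ccnb2 and the 4 genes with probe sets shown were added after their values were seen. From other lists the 2 with the smallest p were named, among them Pou5f1 (10295 ± 948 with, 11283 ± 292 without) and Dppa5a (24020.5 ± 3953 and 28452 ± 4220; SD, n = 4 each) of the pluripotent markers. Alternatives were other scalings, pseudocounts of 1 and 64, filters, probe set rules, eBayes options, array weights, the clone number as a block and leaving out each clone. Quantile-normalized values per clone were added after seeing the data. Promoters were read from a RefSeq table of build GRCm38.p6. The number of arrays limits the precision.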

Additional observations from a re-analysis of the deposited data

Results flagged for a closer look

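Of 78 groups of 4 clones (39 genes in 2 groups), 5 (6.41%) held a clone far from the other 3, where chance gives about 1 in 20. In clone 2 without ascorbic acid Ccnb2 read 5920 against 7600 to 7820 in the other 3, Ccnd3 read 5670 against 4880 to 4980, and Cdk2 read 2170 against 1980 to 1990. In the group with ascorbic acid Cdk2 read 1920 in clone 4 against 2140 to 2160, and Cdc25b read 769 in clone 2 against 881 to 899. Of these 5 values, 3 come from clone 2 without ascorbic acid, where Ccnb2 was low but Ccnd3 and Cdk2 were high.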

How the results depend on the processing

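None of the 39 genes was called with limma under any of 20 alternative settings; 15 kept their sign in all of them and 24 changed it in at least 1, and the cause was not tested. Over all tested genes, limma called 3, and 1 each without an intensity trend and with robust eBayes. After quantile normalization the log2 differences turned for Mcm3 (0.0162), Mcm5 (0.0115), Mcm6 (0.0255), Mcm7 (0.0231) and Cdc20 (0.0657). Median centring turned E2f1 (0.0324), E2f4 (0.0197), Rbl1 (0.0126), Mcm2 (0.000651), Mcm3 (0.000766), Mcm6 (0.0301), Aurkb (0.0229) and Cdc20 (0.00182). Averaging the probe sets of each gene turned Ccnd1 (-0.0199), E2f1 (0.0119), E2f5 (-0.0249), Mcm2 (0.0113), Mcm6 (0.0519), Mcm7 (0.0337), Aurkb (0.144) and Cdc20 (0.017). Leaving out _s_at and _x_at probe sets turned Cdk4 (0.00599) and Mcm4 (-0.0458), and array weights Cdc25b (-0.00595), E2f1 (0.00708) and Cdt1 (-0.00277). Leaving out 1 clone at a time, these differences ranged across 0: Ccna1 -0.25 to 0.00653, Ccna2 -0.102 to 0.012, Ccnd1 -0.0037 to 0.0762, Ccnf -0.0553 to 0.0517, Cdk6 -0.0501 to 0.114, Cdc25b -0.0793 to 0.0744, Cdc25c -0.14 to 0.00454, E2f1 -0.0676 to 0.0338, E2f3 -0.0544 to 0.143, E2f4 -0.054 to 0.0306, Rb1 -0.0272 to 0.109, Rbl1 -0.108 to 0.0698, Mcm2 -0.0924 to 0.000577, Mcm6 -0.0635 to 0.0321, Cdt1 -0.018 to 0.0391, Aurka -0.0481 to 0.0517, Aurkb -0.0568 to 0.0592 and Cdc20 -0.126 to 0.0224. Clone numbers did not pair the clones (correlations of deviations -0.156 to 0.0144), and with the replicate number as a block limma called 3 genes and 0 of the 39. With the filter at 60%, 36 of the 39 were tested. At 4 arrays a group and signals near the dim limit, small differences of Ccna1, E2f2 and Rbl2 could not be resolved.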
